A study of Homo sapiens with 8 samples.

Results

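The regions described here are wide PHF20 peaks at promoters of protein-coding genes that no PHF20L1 peak touched. They were chosen by measured values: a width of 1000 bp or more, no overlap of 1 bp with a PHF20L1 peak, and an overlap with a promoter window, taken as 1000 bp before and 500 bp after the transcription start site (TSS) of any transcript of a protein-coding gene. This gave 411 peaks of the 4147 PHF20 peaks, and of the 681 PHF20 peaks at coding promoters that were at least 1000 bp wide. They are called wide PHF20-only peaks below. They were set beside 268 wide shared peaks, which overlapped a PHF20L1 peak and were no wider than the widest PHF20-only peak (1905 bp), and beside 2564 PHF20-only peaks at coding promoters that were narrower than 1000 bp. A further 15 PHF20-only peaks of 1000 bp or more lay away from coding promoters and 2 wide shared peaks exceeded 1905 bp, and these were left out.

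The peaks came from HA ChIP-Seq in U2OS, a human osteosarcoma cell line, in which HA is a short peptide tag bound by the antibody. All cells over-expressed a tagged protein: PHF20 with an N-terminal 3xHA tag in 2 ChIP libraries and 1 input library, and PHF20L1 in 3 ChIP libraries (1 with an N-terminal and 2 with a C-terminal 3xHA tag) and 2 input libraries (1 for each tag position). According to the methods, cells were sorted for GFP before library preparation to enrich the tagged protein, and 1 PHF20 replicate was dropped because few peaks were called in it. The deposited lists give 1 combined set of positions per protein, with no height and no value per replicate, so the 95% Wilson intervals below cover counting error only, and a region without a PHF20L1 peak was not called at the thresholds used, which does not show that PHF20L1 was absent. By the methods, each list kept peaks of the replicate with the strongest signal that overlapped peaks of the other replicates. A listed width therefore comes from 1 library. A peak's width is not a measure of occupancy, and libraries, tags and expression levels of the PHF20 and PHF20L1 experiments cannot be told apart from the difference between the proteins.

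PHF20 and PHF20L1 are related proteins with Tudor and PHD finger domains that recognise methylated lysines. Each belongs to the nonspecific lethal (NSL) complex, in which the acetyltransferase KAT8 (MOF) acetylates histone H4 together with the KANSL scaffold subunits, WDR5, HCFC1, MCRS1 and OGT. The complex is known for binding promoters of housekeeping genes, which often lie in CpG islands and carry sites for a small set of sequence-specific factors.

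Stretches of these promoters that carry the results on sequence motifs are printed first. All are hg38, 5′ to 3′ on the strand of the nearest canonical TSS, the motif matches are in capitals, and none of the stretches overlaps an annotated exon. Neighbouring or overlapping matches form a single run of capitals. The first 6 are the widest of the peaks that hold TCACGTGA. This is the symmetric E-box bound by basic helix-loop-helix zipper factors such as USF and MITF/TFE. It was chosen because among the motifs called its odds differed most between wide PHF20-only and wide shared peaks. The site was less frequent in the wide PHF20-only peaks. In the 500 bp around the peak centre, 14 of 411 held it (3.41%), against 24 of 268 wide shared peaks (8.96%). The 6 stretches therefore do not show a site typical of wide PHF20-only peaks. CACGTGAC is the E-box form that overlaps TCACGTGA.
SLC33A1, minus strand, chr3:155854663-155854742: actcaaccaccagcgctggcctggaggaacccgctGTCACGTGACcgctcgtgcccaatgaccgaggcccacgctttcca
SIRT1, plus strand, chr10:67884571-67884650: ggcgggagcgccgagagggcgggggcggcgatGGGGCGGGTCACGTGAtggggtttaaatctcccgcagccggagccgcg
VPS11, plus strand, chr11:119067738-119067817: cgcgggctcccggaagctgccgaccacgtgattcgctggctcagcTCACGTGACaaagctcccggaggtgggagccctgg
CDKL3 and UBE2B, minus strand, chr5:134371088-134371167: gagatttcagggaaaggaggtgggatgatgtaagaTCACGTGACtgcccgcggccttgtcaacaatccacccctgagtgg
RNLS, minus strand, chr10:88582869-88582948: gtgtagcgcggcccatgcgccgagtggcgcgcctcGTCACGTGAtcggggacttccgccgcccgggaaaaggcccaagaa
RCBTB1, minus strand, chr13:49585559-49585638: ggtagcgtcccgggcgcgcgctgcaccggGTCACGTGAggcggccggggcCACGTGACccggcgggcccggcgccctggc

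In SIRT1, which encodes a NAD-dependent deacetylase, the capitals also hold GGGGCGGG, the GC box bound by SP and KLF factors, directly before the E-box. VPS11 encodes a subunit of the complexes that tether endosomes and lysosomes, and its stretch was centred 40 bp upstream of the canonical TSS. The stretch of RNLS, the renalase gene, was centred 409 bp downstream of the TSS, whereas those of SIRT1 and RCBTB1 were centred 45 bp and 41 bp upstream.

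The next 4 show ACTTCCGG, or its complement CCGGAAGT, the site of ETS factors such as GABPA and ELK. It was the most common site after the GC box and the one with the smallest p between wide and narrow PHF20-only peaks. These peaks and the 3 that follow were picked after the values were seen.
DDX21, plus strand, chr10:68956055-68956134: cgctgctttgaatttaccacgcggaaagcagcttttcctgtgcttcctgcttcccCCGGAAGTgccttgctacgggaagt
GPATCH8, minus strand, chr17:44503671-44503750: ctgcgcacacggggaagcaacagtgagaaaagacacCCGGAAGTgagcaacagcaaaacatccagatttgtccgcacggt
ERH and SLC39A9, minus strand, chr14:69398607-69398686: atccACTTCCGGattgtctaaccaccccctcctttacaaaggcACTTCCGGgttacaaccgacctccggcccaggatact
TTC14, plus strand, chr3:180602051-180602130: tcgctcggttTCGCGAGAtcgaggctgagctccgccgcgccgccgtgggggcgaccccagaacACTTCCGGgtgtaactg

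DDX21 encodes an RNA helicase of ribosome production. The promoter between ERH and SLC39A9 held 2 copies of the ETS site in one stretch, and that of TTC14 held an ETS site together with TCGCGAGA, the complement of TCTCGCGA, which BANP and ZBTB33 bind. The last 3 come from the widest peaks and show how different their sequences were.
MIX23, minus strand, chr3:122383232-122383311: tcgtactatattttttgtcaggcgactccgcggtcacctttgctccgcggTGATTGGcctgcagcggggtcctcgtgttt
THADA, minus strand, chr2:43596077-43596156: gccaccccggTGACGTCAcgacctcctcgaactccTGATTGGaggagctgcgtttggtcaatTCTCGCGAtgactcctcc
WDR75, plus strand, chr2:189441127-189441206: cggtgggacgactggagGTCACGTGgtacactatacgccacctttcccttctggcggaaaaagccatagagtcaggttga

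MIX23 showed TGATTGG, the complement of the NFY site CCAATCA. THADA carried 3 different sites within the 80 bases: TGACGTCA (the cAMP response element, CRE, bound by CREB and ATF factors), the NFY site and TCTCGCGA. WDR75, whose product acts in ribosomal RNA synthesis, carried GTCACGTG, the complement of CACGTGAC.

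The widest peaks lay at genes of varied function. The widest of all, 1905 bp on chromosome 3 (122382384 to 122384288), covered the promoters of FAM162A and MIX23, both of which encode mitochondrial proteins. DNAJC27, a gene of a DnaJ-domain GTPase, had a peak of 1863 bp. The promoter region of POLR2B, the second-largest subunit of RNA polymerase II, and NOA1, a GTPase of mitochondrial translation, had a peak of 1702 bp. At ZNF646 and ZNF668, which face away from each other and encode zinc finger proteins, the peak was 1660 bp wide. Peaks of 1635 bp at PDS5A, a regulator of cohesin, and of 1614 bp at THADA followed. RPL14, a protein of the large ribosomal subunit, had 1543 bp and ATXN10 had 1542 bp. SKIC8, a subunit of the SKI complex of RNA decay, had 1528 bp. The peak of 1525 bp between C5orf22 and DROSHA, the nuclease that starts microRNA processing, and that of 1524 bp between GGA3 and MRPS7 each spanned both promoters. WDR75 closed the 12 widest with 1514 bp.

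**Figure D1:**
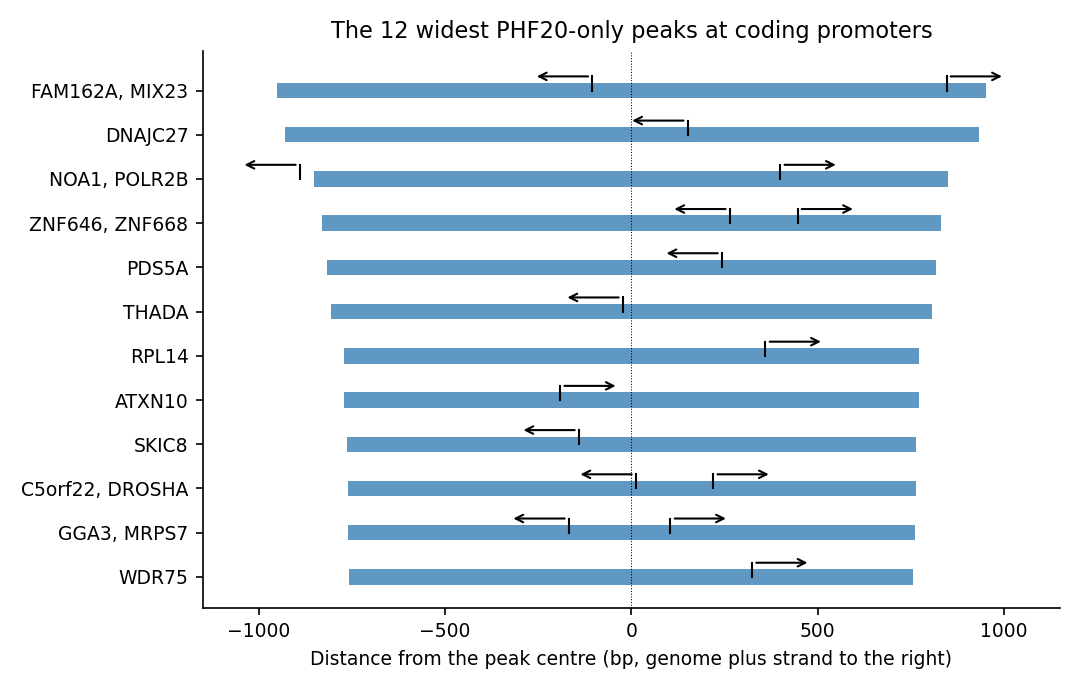
Map of the 12 widest PHF20-only peaks at coding promoters, one row per peak, with distance from the peak centre in bp on the x axis. Bars are peaks, and arrows start at the canonical TSS of each coding gene and point in the direction of transcription; the TSS of NOA1 falls just outside its peak, and FAM162A/MIX23, ZNF646/ZNF668, C5orf22/DROSHA and GGA3/MRPS7 are divergent pairs.

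The wide PHF20-only peaks were concentrated near the width limit. Their median width was 1135 bp (95% interval 1121 to 1154 bp), with quartiles of 1064 and 1255 bp, and together they covered 482688 bp. Of them, 270 (65.7%) were under 1200 bp and 13 reached 1500 bp. Wide shared peaks had a median of 1224.5 bp, with 47.0% under 1200 bp and 31 reaching 1500 bp. Of both kinds, the PHF20-only share was 68.7% from 1000 bp to under 1100 bp, 52.6% from 1300 bp to under 1400 bp and 29.5% from 1500 to 1905 bp. Width and overlap with PHF20L1 chose the peaks, so these are descriptions. The narrowest PHF20-only peaks inside the limit, 1000 bp each, lay at PTS, at FOXRED1 and SRPRA, and at UBR1. Just outside it, at 999 bp each, were the peaks of MTHFSD, FBXL12 and UBL5, SLC25A26 and TTF1. There were 16 peaks of 1000 to 1009 bp and 23 of 990 to 999 bp, so the limit divides peaks of nearly the same width.

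**Figure D2:**
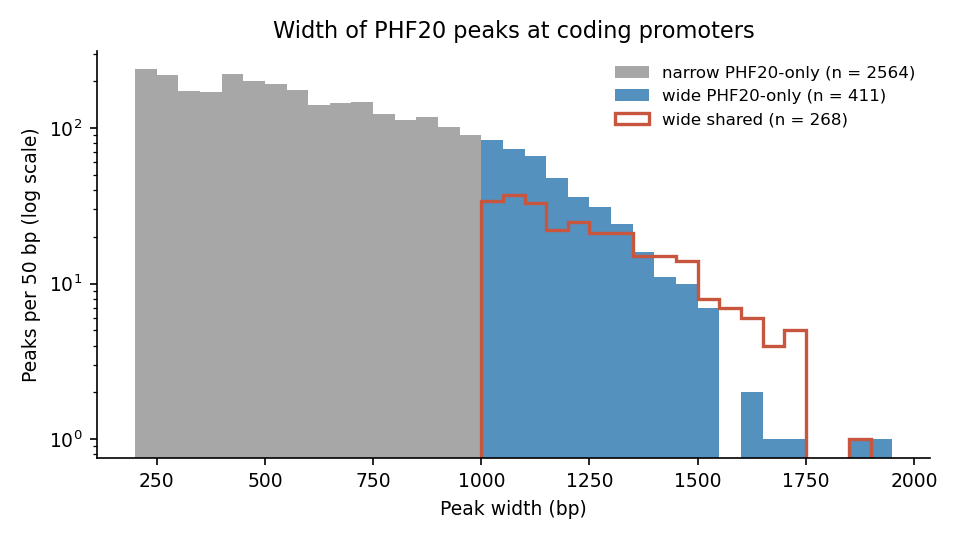
Number of PHF20 peaks at coding promoters per 50 bp of width (log scale) against peak width in bp. Grey, narrow PHF20-only peaks (n = 2564); blue, wide PHF20-only peaks (n = 411); red outline, wide shared peaks (n = 268), which outnumber the PHF20-only peaks above 1500 bp.

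Of the genes examined individually in the study, PIGT, a subunit of the transamidase that attaches GPI anchors, had a wide PHF20-only peak of 1242 bp on chromosome 20 (45415598 to 45416839). It reached 543 bp upstream and 698 bp downstream of the canonical TSS, and the nearest PHF20L1 peak was 474254 bp away. VAMP3, a vesicle SNARE, had a PHF20-only peak of 402 bp and therefore belonged to the narrow group.

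The rule excluded overlap with PHF20L1 peaks, and only 723 of these were listed over the genome. Large gaps therefore follow from the choice of peaks and are described only. The median gap to the nearest PHF20L1 peak was 754218 bp (579299 to 886675 bp), none lay within 1000 bp of one, and 5 lay within 10000 bp. The closest, at 2086 bp, was the peak of PSMC2, an ATPase subunit of the proteasome. Those of CDKL3 and UBE2B at 3149 bp and of DEPDC5, a subunit of the GATOR1 complex that restrains mTORC1, at 3199 bp came next, followed by ZKSCAN8 at 4446 bp and STOML2 at 5747 bp.

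The peaks covered the promoters of 559 genes, 2.79% of the 20033 protein-coding genes, against 356 genes (1.78%) for wide shared peaks. Of the 411 peaks, 276 touched 1 gene, 123 touched 2 and 12 touched 3 or more. No gene had more than 1 wide PHF20-only peak, 3 of the 559 genes also had a wide shared peak and 16 also had a narrow PHF20-only peak. Of all 20033 genes, 1.78% had a wide shared and 14.5% a narrow PHF20-only peak. A gene falls in 2 groups only where it has 2 separate PHF20 peaks, so these overlaps depend on the rule and are described only. Another PHF20 peak within 2000 bp was present for 6 of the 411. A canonical TSS, the start of the transcript that the annotation marks as representative, lay inside 402 peaks (97.8%), against 97.0% of wide shared and 55.1% of narrow PHF20-only peaks. A narrower peak holds a TSS less easily, so the contrast with narrow peaks is a description and was not tested. Of the covered bases, 40.9% were exonic, 30.6% intronic and 28.5% outside coding genes.

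Divergent promoters, in which a pair of coding genes starts within 1000 bp in opposite directions, accounted for 83 of the wide PHF20-only peaks (20.2%, 16.6% to 24.3%). The share was 16.8% (12.8% to 21.7%) among wide shared peaks, and the difference was not significant (odds ratio 1.25, p = 0.32 by Fisher's exact test, two-sided). The median distance between the TSSs of a pair was 146 bp, ranging from 26 bp to the 951 bp between MIX23 and FAM162A. Counting partners of any gene type, 169 peaks (41.1%) were divergent, of which 86 had only noncoding partners. Narrow PHF20-only peaks contained a coding pair in 3.28% of cases, but a narrower peak can hold a pair less easily, so no test was made.

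Outside divergent coding pairs, wide PHF20-only peaks extended farther upstream than downstream of the canonical TSS. Among 319 such peaks, 202 reached farther upstream and 117 farther downstream (36.7%, 31.6% to 42.1%; exact binomial test against equal numbers, two-sided, p = 2.2e-06). The median reach was 625 bp upstream (602 to 642 bp) and 524 bp downstream (499 to 550 bp), against 631 bp (605 to 674 bp) and 562 bp (542 to 587 bp) for wide shared peaks. RPL14, for example, had a peak that extended 1131 bp upstream and 411 bp downstream, and the peak of WDR75 extended 1081 bp and 432 bp. All 319 contained the canonical TSS, and the promoter window that chose the peaks itself reaches farther upstream. DNAJC27, PDS5A and ATXN10 showed the opposite, with 1082, 1060 and 961 bp downstream. The share was 36.5% downstream (85 of 233, exact p = 4.4e-05) without peaks that had a divergent partner of any type, an alternative added after the data were seen. With the outermost annotated TSS of each gene in place of the canonical one, the asymmetry was lost (136 of 278 farther downstream, 48.9%, exact p = 0.76), so it depends on which start site is taken as the reference. Among wide shared peaks, 93 of 215 (43.3%) reached farther downstream, and the share did not differ significantly from that of wide PHF20-only peaks (odds ratio 0.76, Fisher's exact test, p = 0.15). Narrow PHF20-only peaks that held a canonical TSS lay mostly downstream of it, with 67.7% farther downstream.

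**Figure D3:**
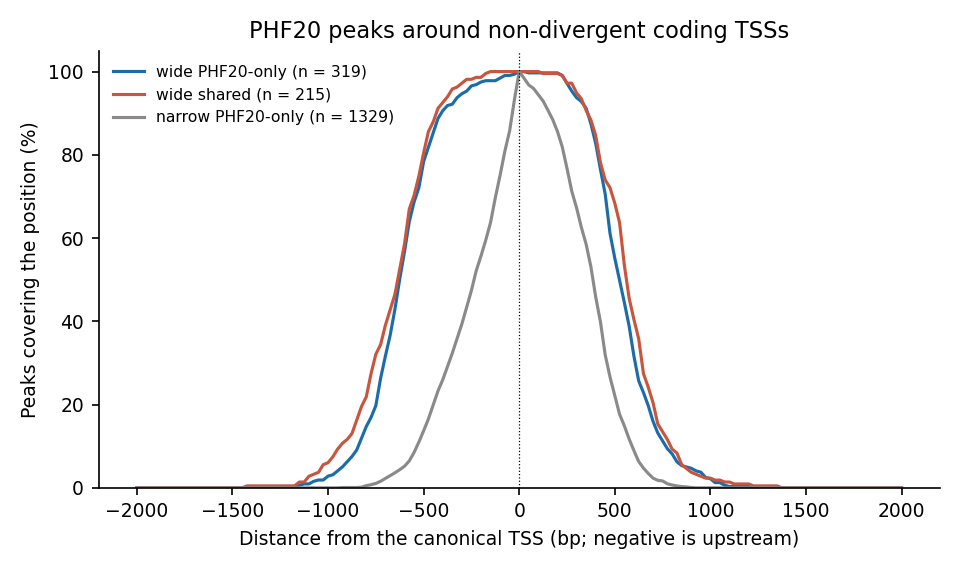
Percent of peaks covering each position (y axis) by distance from the canonical TSS in bp (x axis, negative is upstream), for peaks without a divergent coding pair. Wide PHF20-only peaks (blue, n = 319) and wide shared peaks (red, n = 215) reach a median of 625 and 631 bp upstream and of 524 and 562 bp downstream, and narrow PHF20-only peaks that contain the TSS (grey, n = 1329) reach a median of 235 bp upstream and 385 bp downstream.

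Most of the peaks were rich in CpG, at a GC content close to that of coding promoters in general. In the 500 bp around the peak centre, the median GC content was 63.4% (62.4% to 64.6%) and the median observed/expected ratio of CpG dinucleotides was 0.853. Of the 411 windows, 287 (69.8%, 65.2% to 74.1%) met a GC content of at least 55% with a ratio of at least 0.75. This compared with 62.7% (56.8% to 68.3%) of wide shared peaks (odds ratio 1.38, Fisher's exact test, p = 0.055) and 66.1% of narrow PHF20-only peaks (odds ratio 1.19, p = 0.14). Among 15814 coding promoters without a peak, taken as 500 bp around the canonical TSS, the share was 46.6%, and among all coding promoters it was 52.5%. The median GC content of these promoter sets was 64.0% and 64.6%, not below that of the peaks. Their median CpG ratio was lower, at 0.734 and 0.776. The comparison with wide shared peaks depended on the window: it passed the threshold with 1000 bp (exact test, p = 0.0060) and with the whole peak (p = 5.2e-05), always with the higher share in PHF20-only peaks. Against narrow peaks the whole-peak comparison was turned around, with a lower share in the wide ones (exact test, p = 2.9e-06). Across the 411 windows the GC content ranged from 41.0% to 80.8%. Among the 12 widest peaks it was lowest at RPL14 with 42.6% and POLR2B with 47.6% and highest at ATXN10 with 75.8% and PDS5A with 78.6%.

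Exact matches to 12 motifs were then counted on both strands in the same windows, and shares of windows were compared by two-sided Fisher's exact tests with Benjamini-Hochberg adjustment over the 12. The letters searched, beside those given above, were GCATGCGC for NRF1, AAGATGGC for YY1, ACTACAAT for ZNF143 and THAP11, GGCGGGAA for E2F factors and TATAAA for the TATA box. A match is a run of letters and not a measured binding site. At least 1 of the 12 motifs was present in all but 104 of the wide PHF20-only windows (25.3% without), against 32.5% of wide shared and 37.6% of narrow windows without one.

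The E-boxes were less frequent in wide PHF20-only than in wide shared peaks. CACGTGAC was in 25 of 411 windows (6.08%, 4.15% to 8.83%) against 33 of 268 (12.3%, 8.90% to 16.8%; odds ratio 0.461, exact test, adjusted p = 0.021). TCACGTGA was in 14 (3.41%) against 24 (8.96%; odds ratio 0.359, exact test, adjusted p = 0.019). The motifs overlap by all but 1 letter, and each of the 14 windows with TCACGTGA also held CACGTGAC in an overlapping position. They are therefore close to a single observation. The share with CACGTGAC among all 19958 coding promoters of this length was 3.72%, and with TCACGTGA it was 1.59%. Wide PHF20-only peaks did not differ significantly from narrow ones in either (5.11% and 2.77%, exact tests, both adjusted p = 0.51). With windows centred on the canonical TSS, an alternative added after the data were seen, the shares were 5.84% against 13.8% for CACGTGAC (exact test, adjusted p = 0.0064) and 3.41% against 8.96% for TCACGTGA (adjusted p = 0.019). The direction was kept but the test was not passed with both groups limited to widths under 1300 bp (exact test, adjusted p = 0.21 and 0.13), with a minimum width of 1100 bp (0.088 and 0.073) or, added after the data were seen, with a GC fraction of 0.55 to 0.70 (0.071 for both), all of which use fewer peaks. CACGTGAC was already known from these data to be common in PHF20L1 peaks, so this comparison is not independent of that result.

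The ETS site did not differ significantly between wide PHF20-only and wide shared peaks (101 of 411 windows, 24.6%, 20.7% to 29.0%, against 28.0%, 23% to 33.6%; odds ratio 0.838, exact test, adjusted p = 0.39). Both shares were above that of coding promoters without a peak, at 3.75%, and of all coding promoters, at 6.59%. Among narrow PHF20-only peaks it was in 13.7% (12.4% to 15.1%), a lower share than in the wide ones (odds ratio 2.05, exact test, adjusted p = 9.3e-07). With windows centred on the TSS the shares were 24.8% and 14.5% (exact test, adjusted p = 5.5e-06), and this difference was kept in every alternative run. A canonical TSS lay inside 55.1% of narrow peaks, so many of their TSS windows were centred outside the peak. No alternative was limited to narrow peaks that held a TSS. Copies in the wide PHF20-only windows lay at a median of -36 bp from the TSS (-45.5 to -24.5 bp, negative meaning upstream), and 74 of 120 (61.7%) were within the first 100 bp upstream, as in the stretches of DDX21 and TTC14 above. The printed stretches of GPATCH8 and of ERH and SLC39A9 lay farther away, centred 305 bp and 348 bp upstream.

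The GC box GGGGCGGG and the NFY site CCAATCA were more frequent in wide PHF20-only than in wide shared windows. The GC box was in 33.1% against 22.4% (exact test, adjusted p = 0.019) and the NFY site in 10.7% against 4.85% (adjusted p = 0.021). Coding promoters without a peak held the GC box in 38.8%, above both kinds of wide peak, and the NFY site in 9.89%, close to the wide PHF20-only peaks. The share among all coding promoters was 39.5% and 9.69%. Narrow PHF20-only windows held the GC box in 33.1%, the same share as the wide ones. Both differences from wide shared windows missed the threshold with windows of 1000 bp (exact test, adjusted p = 0.099 and 0.12) and with whole peaks (0.094 and 0.10). With both groups limited to widths under 1300 bp, the GC box missed it (exact test, adjusted p = 0.10) and the NFY site passed (0.037). With windows centred on the TSS, the GC box kept its call (34.5% against 24.3%, exact test, adjusted p = 0.019) and the NFY site did not (9.98% against 5.22%, adjusted p = 0.091). TATAAA was in 4.38% of wide PHF20-only and 9.33% of wide shared windows (exact test, adjusted p = 0.035), against 13.6% of promoters without a peak and 11.8% of all promoters. In wide PHF20-only windows 1 of its 18 copies lay within 100 bp upstream of the TSS, and the difference was not kept with windows centred there (exact test, adjusted p = 0.24), with windows of 1000 bp (0.13) or with whole peaks (0.083). With a minimum width of 1100 bp, none of the 5 motifs called against wide shared peaks passed the test.

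NRF1, YY1, CRE and BANP/ZBTB33 letters did not differ significantly between wide PHF20-only and wide shared windows (exact test, adjusted p = 0.058, 0.29, 0.48 and 0.24). In the wide PHF20-only windows they were found in 7.54%, 12.7%, 6.33% and 6.08%, against 4.62%, 5.31%, 2.81% and 1.89% of all coding promoters. All of them, and the NFY site, were more frequent than in narrow PHF20-only windows (4.21%, 8.70%, 2.93% and 3.12%, exact test, adjusted p = 0.013, 0.026, 0.0043 and 0.013; for NFY 4.68%, adjusted p = 3.8e-05). These calls were all lost with windows centred on the TSS (exact test, adjusted p = 0.67, 0.42, 0.087 and 0.067, and 0.67 for NFY), where the GC box became less frequent in wide than in narrow peaks (34.5% against 46.7%, adjusted p = 2.5e-05). Windows at the peak centre and at the TSS cover different stretches in many narrow peaks, since 55.1% of these contained a canonical TSS. The YY1 letters lay at a median of 13.5 bp from the TSS, with an interval from -80.5 to 22.5 bp that spans it. The E2F letters were in 6.08%, 7.09% and 8.03% of wide PHF20-only, wide shared and narrow windows and in 6.42% of all coding promoters, and the ZNF143 and THAP11 letters in 4, 0 and 11 windows.

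**Figure D4:**
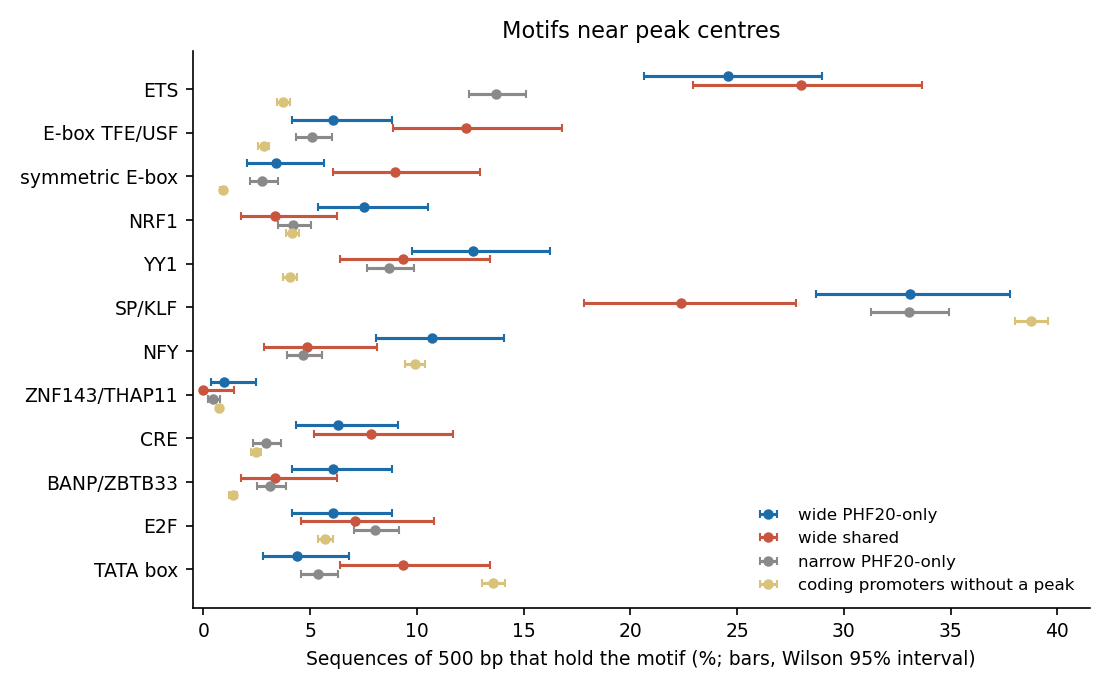
Percent of 500-bp windows that hold each motif (x axis; bars are Wilson 95% intervals) in wide PHF20-only (blue, n = 411), wide shared (red, n = 268) and narrow PHF20-only peaks (grey, n = 2564), centred on the peak, and in coding promoters without a peak (yellow, n = 15814), centred on the TSS. ETS stands at 24.6%, 28.0%, 13.7% and 3.75%, and the E-box CACGTGAC at 6.08%, 12.3%, 5.11% and 2.82%.

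Across all 10913 8-mers present in at least 10 windows, none differed between wide PHF20-only and wide shared peaks at an adjusted p under 0.05 (0% higher and 0% lower, Fisher's exact tests). At an unadjusted p under 0.05 there were 461, of which 209 were more and 252 less frequent in the PHF20-only peaks. The smallest p belonged to CGGGCGAA, found in 0 of 411 windows (at most 0.730% with 3 counts) and in 11 of 268 (exact test, adjusted p = 0.35). The motif differences above were therefore called only among the 12 motifs chosen for testing.

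Genes were grouped in 29 families by symbol and read beside the background of 2.79%. These shares were not tested. Of the 29, 22 had a share above the background and 2 had no gene with a wide PHF20-only peak. Among the 22, the intervals of the synthetase, Mediator and TFII, SNARE and VPS, cilium, replication, kinetochore, chaperone, NSL and H3K4 families included the background. Most of the 29 families also had a wide shared share above the 1.78% of all genes. For narrow PHF20-only peaks the share was above the 14.5% of all genes in every family but histones (7.22%), developmental factors (5.63%), MSL and MYST genes (14.3%) and olfactory receptors and keratins (0%). It was 28.2% for mitochondrial and 33.7% for cytosolic ribosomal proteins. A share above the background was therefore not particular to the wide PHF20-only peaks. For these, the highest share among families of more than 20 genes was that of the mitochondrial ribosomal proteins, with 13 of 78 (16.7%, 10% to 26.5%). Wide shared peaks held another 12 of them (15.4%). MRPS7 (1524 bp) and MRPL20 (1337 bp) had the widest peaks, and the peak of MRPL46 and MRPS11 (1271 bp), named after the values were seen, covered a divergent pair in which both genes encode subunits of that ribosome.

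Of the other mitochondrial families, subunits and assembly factors of respiratory complex I were covered in 4 of 48 (8.33%), with NDUFAF3 at 1452 bp and NDUFS3 at 1364 bp, and those of complexes II to V in 7 of 83 (8.43%), with COA5 at 1458 bp and UQCRH at 1396 bp. For import and carrier proteins the count was 6 of 78 (7.69%), with SLC25A46 at 1258 bp and TIMM23B at 1184 bp. TIMM23, TIMM23B and a readthrough gene of the latter are near-identical copies, so their 3 entries are uncertain as separate genes.

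Among the families of protein synthesis and turnover, EIF translation factors had 6 of 56 (10.7%), led by EIF2S1, the alpha subunit of the initiation factor eIF2, at 1492 bp and EIF2B4, a subunit of its exchange factor, at 1390 bp. Cytosolic ribosomal proteins had 6 of 86 (6.98%), with RPL14 and RPL24 (1380 bp) widest, against 2 of 86 (2.33%) for wide shared peaks. Aminoacyl-tRNA synthetases had 3 of 39 (7.69%, 2.65% to 20.3%, an interval that includes the background), with IARS1 at 1258 bp the widest. Proteasome subunits and assembly factors had 4 of 52 (7.69%), with the assembly chaperone PSMG2 at 1353 bp and PSMC2 at 1261 bp, and the same number had a wide shared peak.

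In the transcription and RNA machinery, subunits of RNA polymerases and TFIII factors had 4 of 50 (8.0%), with POLR2B at 1702 bp and POLR1C, a subunit of polymerases I and III, at 1331 bp. Mediator, TFIID and TFII factors had 5 of 88 (5.68%), with TAF2 at 1283 bp and MED8 at 1175 bp. Splicing factors had 5 of 77 (6.49%), with SF3B2 at 1350 bp and SRSF11 at 1341 bp. Nuclear pore and transport genes had 5 of 71 (7.04%), with NUP37 at 1168 bp and NUP160 at 1158 bp.

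Genes of genome maintenance were represented by 8 of 108 DNA repair genes (7.41%), including RECQL, a helicase, at 1356 bp and POLQ, the polymerase of end joining, at 1277 bp. There were also 3 of 61 replication genes (4.92%), with MCM5 of the replicative helicase at 1362 bp and WDHD1 at 1124 bp, and 3 of 67 kinetochore and anaphase-promoting complex genes (4.48%), with ANAPC7 at 1216 bp and ANAPC13 at 1108 bp. Of the DNAJ, HSP and CCT chaperones 4 of 102 (3.92%) were covered, with DNAJC27 and DNAJC19 (1266 bp) widest.

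Among the endomembrane families, genes of GPI anchors and dolichol-linked glycosylation had 7 of 65 (10.8%, 5.32% to 20.6%), with ALG8 at 1415 bp and ALG3 at 1284 bp, both mannose or glucose transferases of the lipid-linked oligosaccharide, ahead of PIGT. SNARE, VPS and SNX genes had 6 of 116 (5.17%) in wide PHF20-only and 6 in wide shared peaks, with SNX17 at 1390 bp and VPS11 at 1147 bp. Genes of lysosomal proteins and the V-ATPase proton pump had 1 of 86 (1.16%, 0.206% to 6.30%), namely ATP6V1D at 1492 bp in the peak it shares with EIF2S1, against 10 of 86 (11.6%) for wide shared peaks. The shared peak of LAMP1, another gene of this family and named after the values were seen, was wider than 1905 bp and is not counted. Of the autophagy genes ATG3 was the only 1 of 44 (2.27%, 0.402% to 11.8%, an interval that includes the background), against 4 of 44 (9.09%) for wide shared peaks. Narrow PHF20-only peaks lay at 17 of the 44 autophagy genes (38.6%) and at 17 of the 86 lysosomal genes (19.8%), against 14.5% of all protein-coding genes. Cilium and centrosome genes had 4 of 82 (4.88%, 1.91% to 11.9%) in wide PHF20-only and 0 of 82 (up to 3.66% with 3 counts) in wide shared peaks, including CEP76 at 1353 bp and CEP63 at 1108 bp.

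**Figure D5:**
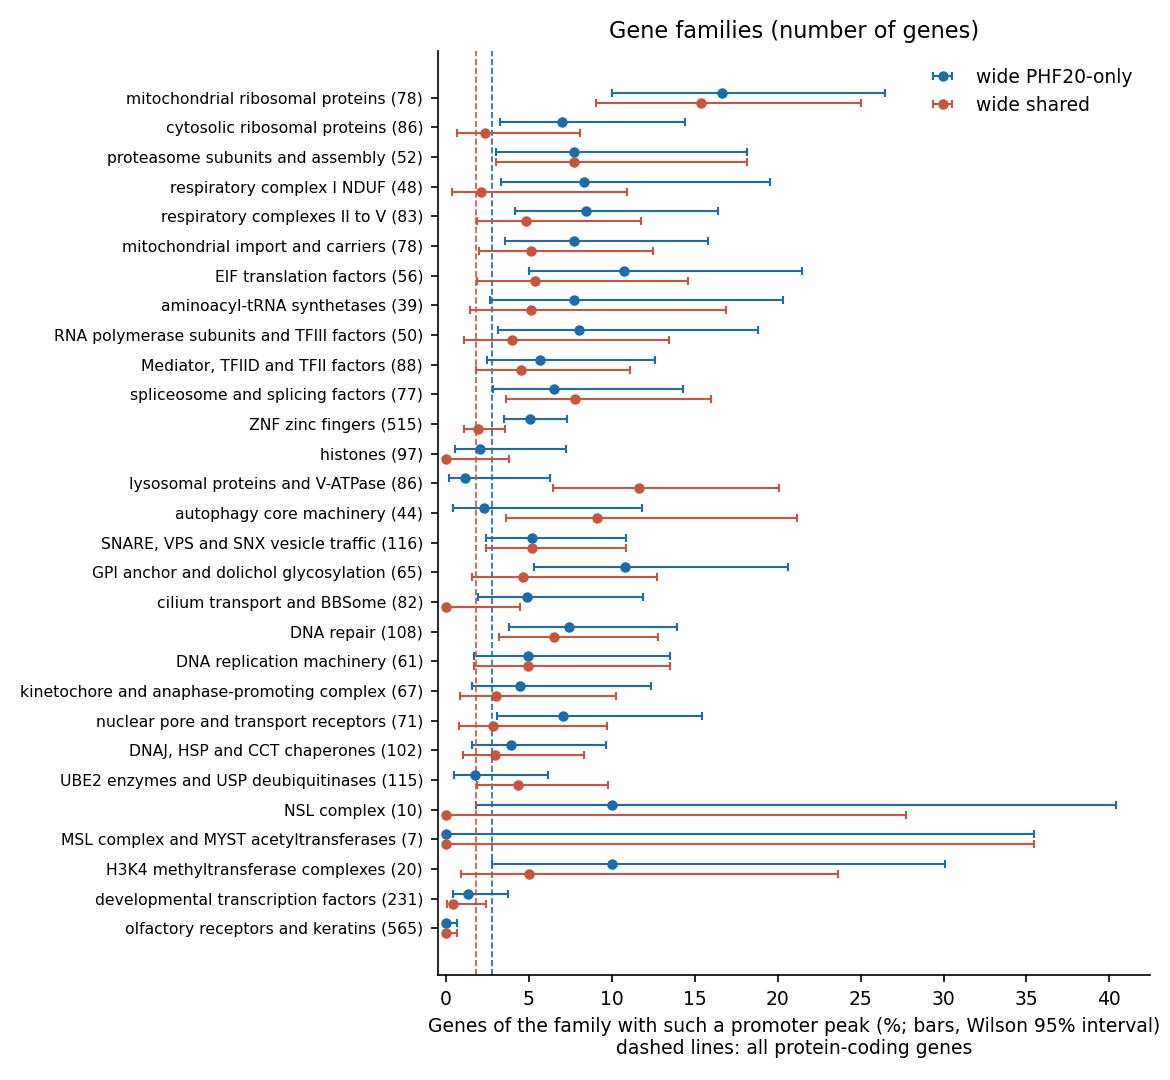
Percent of genes in each of 29 families (number of genes in parentheses) whose promoter had a wide PHF20-only peak (blue) or a wide shared peak (red), with Wilson 95% intervals; dashed lines mark all protein-coding genes at 2.79% and 1.78%. Mitochondrial ribosomal proteins stand highest among the larger families for both kinds of peak (16.7% and 15.4%), and lysosomal genes lie at 1.16% for PHF20-only and 11.6% for shared peaks.

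Zinc finger genes of the ZNF series were covered in 26 of 515 (5.05%, 3.47% to 7.29%), against 10 (1.94%) for wide shared peaks. On chromosome 19, which holds 249 of them in clusters, 3 had a wide PHF20-only peak (1.20%), and elsewhere 23 of 266 did (8.65%). The widest were the peak of ZNF646 and ZNF668 and that of ZNF407 (1428 bp). Chromosome 19 as a whole was sparsely covered by wide PHF20-only peaks, with 8 of its 1476 coding genes (0.542%). On the X chromosome 1 of 859 genes was covered (0.116%). Wide shared peaks had the same shares on both chromosomes, 0.542% and 0.116%. Narrow PHF20-only peaks were not as rare on chromosome 19, which held 143 of them (5.58%), against 1.46% of the wide PHF20-only peaks. The X chromosome held 1.13% of the narrow and 0.243% of the wide PHF20-only peaks. The share of wide PHF20-only peaks was highest on chromosome 3, at 55 of 1081 genes (5.09%). The copy number of each chromosome in U2OS was not measured here, and its part in these shares was not tested.

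Among genes of chromatin complexes the counts were small. Of 10 NSL genes, PHF20L1 itself had a wide PHF20-only peak (1306 bp) and the other 9 had none of that width. None of 7 MSL and MYST acetyltransferase genes had one, and of 20 genes of H3K4 methyltransferase complexes BOD1 (1310 bp) and WDR82 (1035 bp) did. Narrow PHF20-only peaks lay at 4 of the 10 NSL genes (40%), 1 of the 7 MSL and MYST genes (14.3%) and 6 of the 20 H3K4 genes (30%). Their share over all protein-coding genes was 14.5%. Of 97 histone genes, H3-3B (1194 bp) and MACROH2A1 (1129 bp) did (2.06%), both of which lie outside the replication-dependent clusters. Ubiquitin-conjugating enzymes and USP deubiquitinases had 2 of 115 (1.74%), UBE2B (1131 bp) and UBE2D2 (1049 bp), against 5 (4.35%) for wide shared peaks. Developmental transcription factors had 3 of 231 (1.30%), of which FOXM1 (1466 bp) is a regulator of mitotic genes, FOXJ3 had 1065 bp, and FOXRED1 is an oxidoreductase that the symbol pattern caught. None of 565 olfactory receptor and keratin genes had a wide PHF20-only peak, so a share of 0.531% or less is allowed by this count.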

How the data were processed

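The authors mapped 50-bp HA ChIP-Seq reads to hg38 with Bowtie 1.1.2, kept unique positions and 1 copy of duplicate reads, called peaks against input with MACS2 2.2.7.1 (extension size 200 bp; versions per the submitters' processing notes) and removed blacklisted regions. For each protein they then kept the peaks of its best replicate that overlapped peaks of its other replicates. The deposited values are genomic positions (start and end in bp, no score), and depth per library was not taken from them. Peaks were compared with GENCODE release 44 on hg38, counted from 1. Genes were named by rule: those of the 12 widest peaks, of the 2 widest per family, next to the width limit, nearest to PHF20L1 peaks, and PIGT and VAMP3, with the 6 widest peaks holding the printed E-box; 1 gene that the rule names is not reported here. LAMP1, MRPL46/MRPS11 and the printed ETS stretches were picked after the values were seen, as was the choice of stretches from the widest peaks. The regions, motifs and families were chosen with earlier results of these data known. Two-sided Fisher's exact and exact binomial tests, Benjamini-Hochberg adjustment at 0.05 and Wilson intervals were used. Tests over peaks measure the spread over peaks and not between replicates. Python 3.11.15, numpy 2.4.6, scipy 1.17.1, pysam 0.24.0 and matplotlib 3.10.9 were used, and the steps were tested on simulated data. Alternatives were other widths, overlaps, TSS sets, sequence windows and GC ranges.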

Additional observations from a re-analysis of the deposited data

How the results depend on the processing

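No paired analysis was possible because each final list gives no value per replicate, and for the same reason no replicate could be left out. Of 254 alternative values, 47 main and 142 single-motif values were the same as in the report's setting. For tests this means the same direction and side of the threshold, and for counts a value within a set ratio of the main count. In the same direction, 30 single-motif calls were lost; the causes were not tested, except that stricter widths and GC ranges use fewer peaks. A minimum width of 1100 bp left 255 peaks. Against wide shared peaks, 5 motifs were called in the report's setting, 2 each with 1000-bp windows, with whole peaks and with widths under 1300 bp, 0 at 1100 bp or more, 1 with a GC fraction of 0.55 to 0.70 and 3 with windows at the canonical TSS; the last pair were added after the data were seen. Against narrow peaks, 6 motifs were called, and 2 each with 1000-bp windows and with windows at the TSS. The share of peaks reaching farther downstream, minus 50 points, went from -13.3 to -1.08 with the outermost TSS. The log2 odds of CpG-rich windows against wide shared peaks, 0.46, passed the threshold at 0.63 (1000-bp windows), 0.94 (whole peaks) and 0.45 (at least 900 bp), and against narrow peaks turned from 0.24 to -0.12 and -0.73 with the first 2 of these.

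Single motifs changed direction as follows, in log2 odds. Against wide shared peaks, ETS went to 0.28 at 1100 bp or more, CRE to 0.20 with widths under 1300 bp and 0.11 at the TSS, and E2F to 0.66 with 1000-bp windows, 0.40 with whole peaks, 0.053 in the GC range and 0.073 at the TSS. Against narrow peaks, with 1000-bp windows, CACGTGAC went to -0.20, TCACGTGA to -0.075, NRF1 to -0.027, E2F to 0.032 and SP/KLF to -0.65, the last with an adjusted p of 0.00015. With windows at the TSS CACGTGAC went to -0.23, TCACGTGA to -0.13, ZNF143/THAP11 to -0.49 and SP/KLF to -0.73. SP/KLF was -0.032 at 900 bp or more, and at 1100 bp or more E2F was 0.047 and TATAAA 0.12. The number of peaks limits rare motifs most, and no depth or peak height was available to weigh widths.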
